A study of Mus musculus with 6 samples.

Results

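The neurotrophin genes *Bdnf* and *Ntf3*, the Trk receptor genes *Ntrk2* and *Ntrk3* and the p75 receptor gene *Ngfr* were followed in hippocampal tissue taken on postnatal day 10 from pups that lacked *LAO1*. They were matched by gene symbol to the array annotation, and a gene with several probe sets would have been represented by the brightest. Of the 5 genes, 4 were found among the 19505 genes with a symbol, each on 1 probe set, which this array names a transcript cluster. *Ntf3* was not analysed here. All 6 pups carried the *LAO1* knockout on a C57BL/6Jcl background. They were cross-fostered at birth. WT dams nursed 3 of them, the group *LAO1* KO with WT milk. The other 3 were nursed by *LAO1* KO dams and form the group *LAO1* KO with KO milk. LAO1 is an enzyme of mouse milk that oxidises amino acids and releases hydrogen peroxide, and the comparison asks whether milk without it altered hippocampal gene expression in infancy. Total RNA was hybridized to 1-colour Clariom S mouse arrays, with 1 array per sample, and the values are log2 intensities.

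Neurotrophins are secreted growth factors of neurons that are made as longer precursors and trimmed by proteases. Mature BDNF, the product of *Bdnf*, binds the receptor tyrosine kinase TrkB, the product of *Ntrk2*, and neurotrophin-3 binds TrkC, the product of *Ntrk3*. The p75 receptor, encoded by *Ngfr*, binds the mature neurotrophins and, together with sortilin, the uncut precursors, which can cause neurons to shrink back or die. In the hippocampus BDNF is made mainly by excitatory neurons in response to activity and is known for its part in synaptic plasticity. TrkB also has a short form without a kinase, which astrocytes express.

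*Bdnf* is transcribed from several first exons, each with a promoter of its own, and the RefSeq table used here (GRCm38.p6) holds 7 windows for it, 1 for *Ntrk2* and 1 for *Ngfr*. The 250 bases before each start were searched on both strands for the half-site CGTCA of the cyclic AMP response element (CRE), to which CREB1 binds. The half-site lay in 1 of the 7 *Bdnf* windows, in 0 of 1 for *Ntrk2* and in 0 of 1 for *Ngfr*, whereas 17.8% of the 32851 windows in the table held it. The full element TGACGTCA and the E-box CACGTG, bound by the USF factors, were in none of these 9 windows and in 1.55% and 6.02% of all windows. The stretch that holds the half-site is shown because CREB1 is among the regulators described further on. It lies at chr2:109692336-109692435 (plus strand, GRCm38.p6, ending at the base before the annotated start), with the half-site in capitals.
*Bdnf* window 3: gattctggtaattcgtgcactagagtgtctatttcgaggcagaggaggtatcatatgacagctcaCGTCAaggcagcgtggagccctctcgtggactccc
The half-site begins 35 bases before the start. A match of letters shows no binding. The annotation ties the *Bdnf* cluster to 11 RefSeq transcripts, so its signal does not separate the promoters. The clusters of *Ntrk2* and *Ntrk3* are tied to 3 and 2 transcripts, and the long and short receptor forms were not told apart.

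The labels call all pups male while the methods speak of both sexes, and the mean level of 3 Y-linked genes was between 9.97 and 10.45 in WT milk replicates 1 and 3 and KO milk replicate 2 and between 3.26 and 3.56 in the other 3 arrays. The array least like the others was KO milk replicate 3, whose distance to them (root mean square over clusters, log2) was 0.479 to 0.537, against 0.321 to 0.407 between any pair of the other arrays. The sources do not say from which litter each pup came, so p-values rest on these samples and do not measure a spread between litters. Of 10 measured genes of hippocampal tissue, 10 were brighter than the level given below for silent genes, among them *Camk2a*, *Slc17a7* and *Neurod6* of excitatory neurons. In bulk tissue fewer cells of a type and less RNA per cell cannot be told apart.

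None of the 4 measured genes passed the test between the groups. With limma, a linear model that shares variances across clusters, and an unadjusted p under 0.05, 0 of 4 were lower with KO milk and 0 of 4 were higher, where 3.27% of all 22206 clusters passed, 1.66% lower and 1.61% higher. The unmoderated test per cluster that the methods name for pairs of groups gave the same counts of 0 and 0. For all 4 genes the groups overlapped, where 8.43% of all clusters had groups that did not (4.17% lower and 4.26% higher with KO milk). After adjustment by the Benjamini-Hochberg method limma called 0 clusters of the array (726 at an unadjusted p under 0.05), and the unmoderated test called 0 (764 unadjusted). The genes differed in how closely the arrays lay together, from near identity for *Ntrk2* to a wide spread for *Bdnf*.

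**Figure D1:**
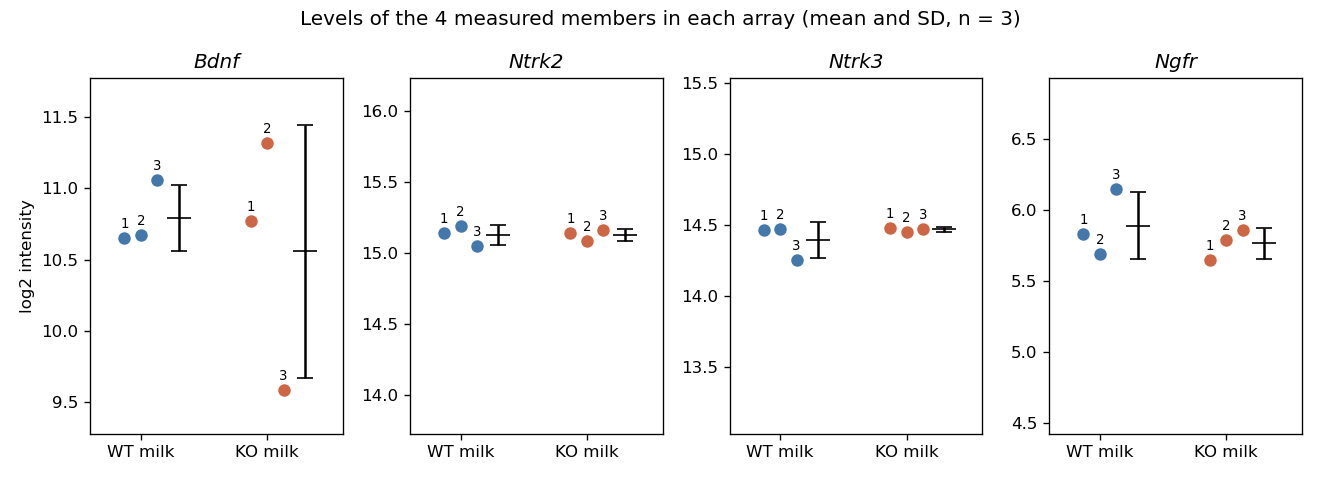
Log2 intensity of *Bdnf*, *Ntrk2*, *Ntrk3* and *Ngfr* in each array (points, numbered by replicate) with the mean and SD of each group (bars, n = 3). Each axis covers the same span of log2 units around the mean of its gene. The *Bdnf* level of KO milk replicate 3, at 9.58, lies below all other *Bdnf* points, whereas the *Ntrk2* points lie between 15.05 and 15.19.

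The log2 intensity of *Bdnf* with WT milk was 10.65, 10.67 and 11.06 for replicates 1, 2 and 3. With KO milk it was 10.77, 11.32 and 9.58 for replicates 1, 2 and 3. Both the highest and the lowest array therefore belonged to the KO milk group, and the WT milk arrays lay between. The means were 10.79 ± 0.23 (SD, n = 3) for the WT milk group and 10.56 ± 0.89 (SD, n = 3) for the KO milk group. With KO milk the level differed by -0.24 on the log2 scale from that with WT milk, the log2 fold change given throughout (standard error 0.36, 95% interval -1.04 to 0.56, limma's unadjusted p = 0.526 and adjusted p = 0.9996). An exact two-sided permutation test over the arrays gave p = 0.9, where 3 arrays against 3 cannot give less than 0.1. As folds, limma's interval runs from 0.487-fold to 1.48-fold. The unmoderated test, which uses the spread of *Bdnf* alone, gave a wider one. Its standard error was 0.53 and its 95% interval -1.71 to 1.24 (log2).

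The *Bdnf* value rested on KO milk replicate 3, which differed from the mean of the other 5 arrays by -1.32 (log2). Without it the log2 fold change was 0.25 (95% interval -0.25 to 0.76), and without KO milk replicate 2 it was -0.62 (95% interval -1.34 to 0.10). Over the 6 arrays the standard deviation of *Bdnf* was 0.597, larger than that of 98.1% of the 13772 clusters above the level of silent genes. KO milk replicate 3 was the lowest array by more than 1 log2 unit for 267 clusters, or 1.2% of the array, and *Bdnf* was one of them, with a gap of 1.07. For the other 5 arrays this number was between 1 and 7 clusters.

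The 3 genes whose levels followed *Bdnf* most closely over the 6 arrays were *Mcts1*, *Psmc6*, a subunit of the proteasome, and *Zfp781*. After each gene was centred on its own mean they differed from *Bdnf* by a root mean square of 0.088, 0.09 and 0.106 (log2, n = 6 arrays, of 12344 genes searched). In KO milk replicate 3 their log2 intensities were 10.23, 10.31 and 9.98, and in KO milk replicate 2 they were 11.77, 12.08 and 11.61. That they shared the lowest and the highest array with *Bdnf* follows from how they were chosen.

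Signals of other kinds were uneven over the same arrays. Choroid plexus genes had a mean log2 intensity of 6.41 and 6.12 in KO milk replicates 1 and 3, 9.04 in KO milk replicate 2 and 7.94 to 8.93 with WT milk. All 10 measured genes of that list had a value below 0 in the comparison, with a median log2 fold change of -0.89, and 9 of 10 were brighter than the level of silent genes. With the choroid plexus level as a covariate in limma the *Bdnf* value was 0.22 (95% interval -0.56 to 0.99), and with the level of the Y-linked genes it was 0.002 (95% interval -0.77 to 0.78). The part of either signal in the *Bdnf* levels was not tested.

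**Figure D2:**
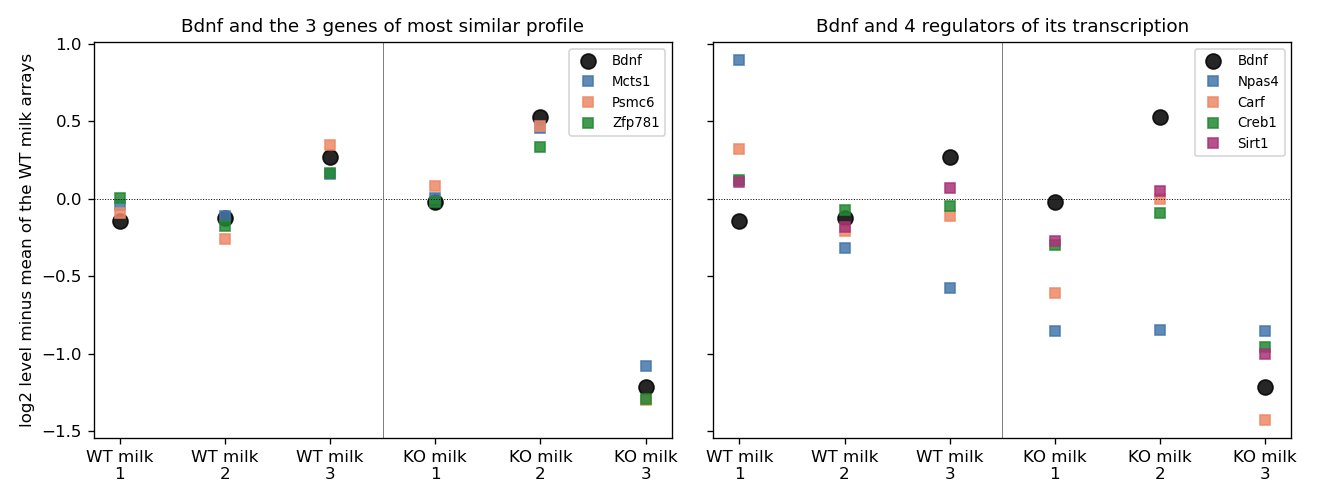
Level of each gene in each array minus its mean over the WT milk arrays (log2), for *Bdnf* with the genes of most similar profile (left) and with regulators of its transcription (right). KO milk replicate 3 holds the lowest point of *Bdnf*, *Mcts1*, *Psmc6*, *Zfp781*, *Carf*, *Creb1* and *Sirt1*, whereas *Npas4* lies at nearly one level in the KO milk arrays.

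*Ntrk2*, the gene of the BDNF receptor TrkB, had nearly one level in all 6 arrays. The WT milk arrays gave 15.14, 15.19 and 15.05 and the KO milk arrays 15.14, 15.08 and 15.16 (log2 intensity). The order of the arrays mixed the groups, and the whole range was 0.135 log2 units. The means were 15.13 ± 0.068 (SD, n = 3) and 15.13 ± 0.041 (SD, n = 3). The log2 fold change was -0.0005 (standard error 0.16, 95% interval -0.36 to 0.36, adjusted p = 0.9996 from limma), and the exact permutation p was 1. The interval leaves room for a level with KO milk of 0.778-fold to 1.28-fold that with WT milk. Its width draws on the variances of other clusters. From the *Ntrk2* arrays alone, by the unmoderated test, the standard error was 0.046. Of the clusters above the level of silent genes, 0.341% had a smaller standard deviation over the 6 arrays than *Ntrk2* had. The genes of most similar profile were *Tmem127*, *Phactr4* and *Slc38a1*, a glutamine transporter, at a root mean square difference of 0.022 to 0.027. That they varied as little follows from how they were chosen.

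*Ntrk3*, which encodes the neurotrophin-3 receptor TrkC, was close to even as well. Its log2 intensities were 14.46, 14.47 and 14.25 with WT milk, against 14.48, 14.45 and 14.47 with KO milk. WT milk replicate 3 was the lowest array, by 0.201, and the other 5 lay together. The log2 fold change was 0.08 (standard error 0.17, 95% interval -0.29 to 0.44, adjusted p = 0.9996 from limma), or between 0.816-fold and 1.36-fold, with an exact permutation p of 0.4. Without WT milk replicate 3 it was 0.0046. *Ndufv3*, a subunit of mitochondrial complex I, *Gm10190* and *Ecpas* had the most similar profiles, with root mean square differences of 0.031 to 0.035.

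*Ngfr* was dim in both groups. The level of silent genes was set as the 95th percentile of 1412 olfactory and vomeronasal receptor genes, which brain tissue hardly uses, at a log2 intensity of 5.78, and 62.0% of clusters were brighter. The *Ngfr* signal was 5.83, 5.69 and 6.15 in the WT milk arrays, against 5.65, 5.79 and 5.86 in those with KO milk, so 4 of 6 arrays lay above that level. Its mean over the arrays exceeded it by 0.049, while *Bdnf*, *Ntrk2* and *Ntrk3* exceeded it in 6 of 6 arrays each. The brightness of different clusters does not compare their transcript levels.

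The log2 fold change of *Ngfr* was -0.13 (standard error 0.19, 95% interval -0.54 to 0.28, adjusted p = 0.9996 from limma), with an exact permutation p of 0.5. WT milk replicate 3 was the highest array, and without it the value was 0.002. So near the level of silent genes, a fold may be understated. Outside the brain *Ngfr* is known from Schwann cells, and within it from cholinergic neurons of the septum. Of 6 measured markers of septal cholinergic neurons 1 was above the level of silent genes, and *Chat*, which makes acetylcholine, was at 2.54 with WT milk and 2.69 with KO milk. The Schwann cell list had a median of -0.06 (log2 fold change) over 5 genes with 1 lower, *Mbp*, which oligodendrocytes share, and 3 of the 5 were above that level. *Tlk1*, *Mrps21* and *Arpc1a* had the profiles most like *Ngfr*, at 0.035 to 0.052.

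**Figure D3:**
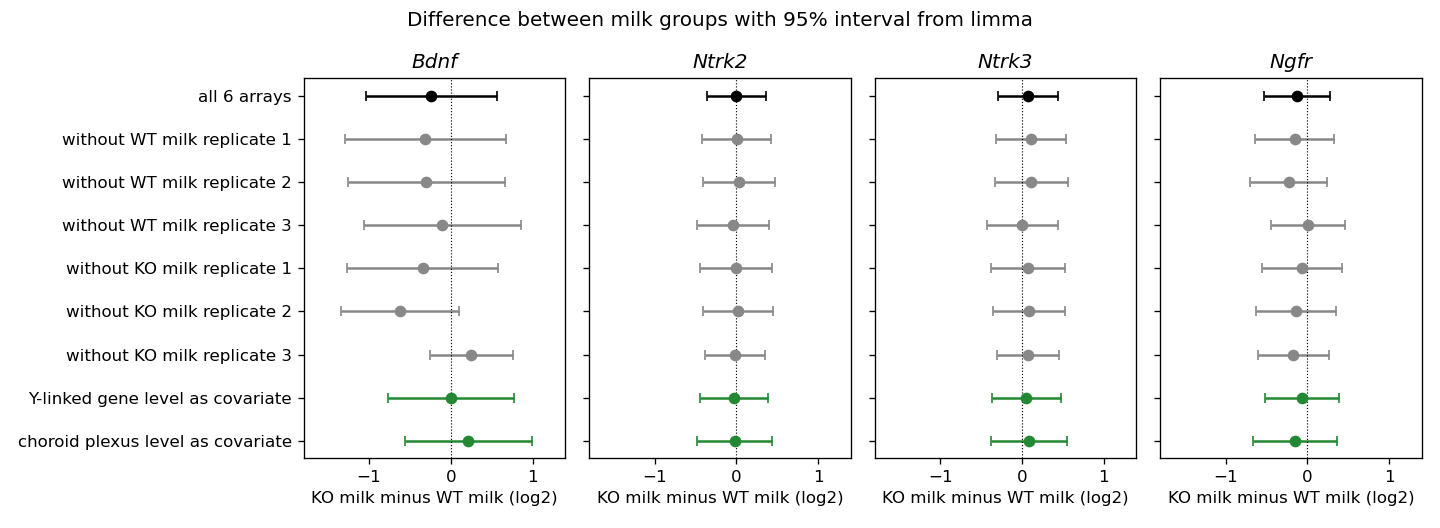
Log2 difference of the groups (KO milk less WT milk, points) with the 95% interval from limma (bars) for each measured gene, with all 6 arrays (black), with each array left out (grey) and with a covariate (green). All intervals include 0. The *Bdnf* point moves from -0.62 to 0.25 as arrays are left out, and the *Ntrk2* points stay between -0.04 and 0.03.

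Differences between members within an array ask whether they moved unequally. The difference *Ntrk2* minus *Ntrk3* changed by -0.08 with KO milk (exact two-sided permutation test, p = 0.2), and *Ntrk2* minus *Ngfr*, the balance of TrkB and p75 transcripts, by 0.13 (exact permutation p = 0.9). *Bdnf* minus *Ntrk2*, ligand against receptor, changed by -0.24 (exact permutation p = 0.9), or 0.27 without KO milk replicate 3. This last pair was chosen after the data were seen. The standard deviation of these differences was 0.063, 0.305 and 0.297 within the WT milk arrays and 0.028, 0.110 and 0.928 within the KO milk arrays. In size, the change of the first pair was larger than both spreads. That of *Ntrk2* minus *Ngfr* lay between them, and that of *Bdnf* minus *Ntrk2* was smaller than both.

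Genes that act around the members were followed in lists by role. Over all 19505 genes the median log2 fold change was 0.0024, and by limma 332 genes were lower and 284 were higher (unadjusted p under 0.05, the threshold for all counts in lists). Among other ligands, receptors and co-receptors 11 of 13 genes were measured, 1 was higher, 0 were lower, and the median was 0.06. The higher one was *Islr2*, a membrane protein also named Linx that binds Trk receptors, whose WT milk arrays read 10.34, 9.74 and 10.31 and whose KO milk arrays read 10.61, 10.72 and 10.79 (log2). The groups did not overlap, and its log2 fold change was 0.58 ± 0.20 (standard error, limma, unadjusted p = 0.0166, adjusted p = 0.9996). Without WT milk replicate 2 it was 0.38 (unadjusted p = 0.0854 from limma).

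*Nradd*, a relative of p75, gave 6.16, 5.97 and 5.94 in the WT milk arrays, against 6.39, 6.18 and 6.34 in those with KO milk. These groups did not overlap either, but the log2 fold change of 0.28 did not pass limma (unadjusted p = 0.129). It passed the unmoderated test at an unadjusted threshold of 0.05. *Lingo1*, a partner of p75, had a value of 0.19, or 0.03 without KO milk replicate 3. *Ntf5*, the gene of neurotrophin-4, the other ligand of TrkB, was at 3.08 with WT milk and 3.15 with KO milk, below the level of silent genes. It lies outside the rule for named genes and is given as the remaining ligand on the list. *Sort1*, which encodes sortilin, was at 14.71 and 14.74, and it too lies outside that rule.

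The proteases, inhibitors and release factors that shape secreted neurotrophin showed no member past the threshold. Of 19 genes 17 were measured, and their median was 0.05. *Serpini1*, the neuroserpin that inhibits tissue plasminogen activator, had a log2 fold change of -0.34 and *Plat*, which encodes that activator, one of 0.25 (unadjusted p = 0.183 and 0.23 from limma). The first was -0.11 without KO milk replicate 3 and the second 0.10 without WT milk replicate 1. Tissue plasminogen activator acts on proBDNF by way of plasmin.

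Signalling downstream of the Trk receptors gave 0 lower and 0 higher of 34 measured genes, with a median of -0.06 and a range of -0.42 to 0.34. The kinase genes *Map2k1* and *Map2k2*, neighbours in the ERK pathway, had values in opposite directions, at -0.38 and 0.34 (unadjusted p = 0.073 and 0.128 from limma). *Rps6ka3*, a kinase that ERK activates, had -0.33, and *Nras*, a small GTPase upstream of ERK, had -0.39 (unadjusted p = 0.0667 from limma). Without KO milk replicate 2 *Nras* and *Map2k1* passed limma, at -0.53 and -0.50 (unadjusted p = 0.0216 and 0.0387). In that setting 1376 of all 22206 clusters passed, against 726 with all arrays. Without KO milk replicate 3 *Nras* and *Map2k1* had -0.27 and -0.22. *Map2k2* had 0.18 without WT milk replicate 1 and *Rps6ka3* -0.21 without WT milk replicate 2. The groups did not overlap for 4 of the 34, and in all 4 the KO milk arrays lay lower, as in 4.17% of all clusters. The p75 adaptors and signalling genes also had 0 lower and 0 higher, of 16 measured, and a median of -0.08. *Mapk9*, a JNK kinase, had -0.39 (unadjusted p = 0.0527 from limma). It passed the unmoderated test, and it passed limma with a robust prior and variance trend (unadjusted p = 0.0399) and without KO milk replicate 1 (unadjusted p = 0.0428). Among the others were the adaptor *Traf4* at 0.35, which passed limma with the Y-linked covariate (unadjusted p = 0.0444), the presenilin *Psen2* at -0.32 and the shedding protease *Adam10* at -0.31. Leaving out single arrays brought them to 0.23, -0.16 and -0.16 (without WT milk replicate 2, WT milk replicate 3 and KO milk replicate 3). The list's median was -0.18 without KO milk replicate 2 and -0.03 without KO milk replicate 3.

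**Figure D4:**
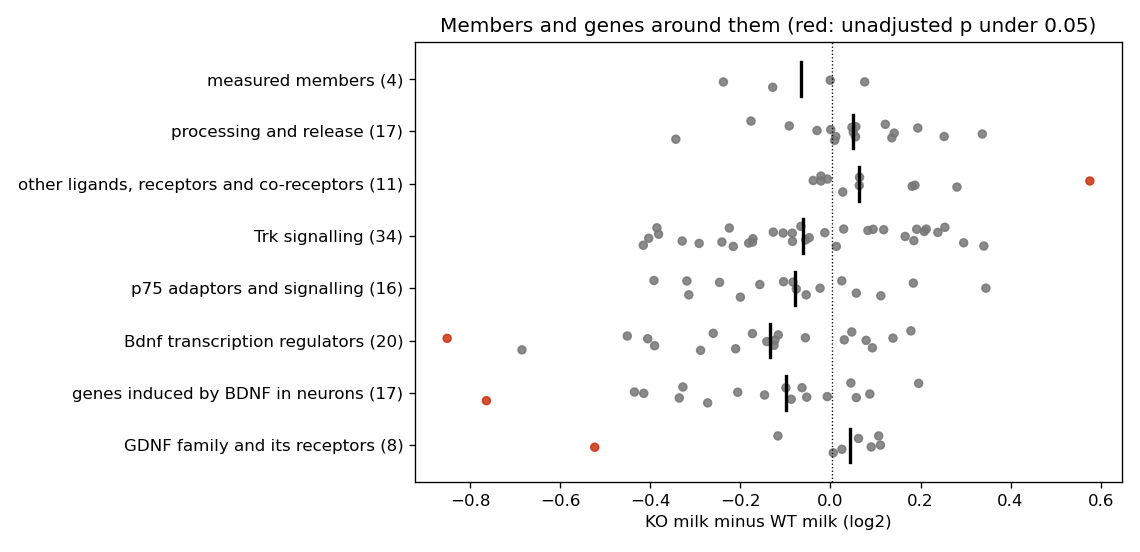
Log2 difference of the groups (KO milk less WT milk) for each measured gene (points) in the lists by role, with the median of each list (black line) and of all genes (dotted line). Red points have an unadjusted p under 0.05 from limma and number 1 each among the co-receptors, the *Bdnf* regulators, the induced genes and the GDNF family, and none among the 4 members.

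Regulators of *Bdnf* transcription had a median of -0.13, with 14 of 20 measured genes below 0, where 9657 of all 19505 genes were. Without WT milk replicate 1 the median was -0.06. Of the 20, 1 passed as lower and 0 as higher. The lower one was *Npas4*, an activity-dependent factor of neurons, at 7.37, 6.16 and 5.90 in the WT milk arrays, against 5.62, 5.63 and 5.62 in those with KO milk, groups that did not overlap. Its log2 fold change was -0.85 ± 0.32 (standard error, limma, unadjusted p = 0.0227, adjusted p = 0.9996). The highest array was WT milk replicate 1, and without it the value was -0.40 (unadjusted p = 0.0646 from limma). The call was also lost by the unmoderated test, without KO milk replicate 3 (unadjusted p = 0.051 from limma) and with the Y-linked or the choroid plexus level as a covariate (-0.75 and -0.69). The KO milk arrays lay below 5.78, at the level of silent genes, so the fold may be understated.

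*Creb1*, the factor that binds the CRE, read 10.30, 10.11 and 10.13 in the WT milk arrays, against 9.88, 10.09 and 9.22 in those with KO milk. The groups did not overlap, by a narrow margin, and the lowest array was the one lowest for *Bdnf*. Its log2 fold change of -0.45 did not pass (unadjusted p = 0.0755 from limma), and it was -0.20 without KO milk replicate 3. *Carf*, a calcium-response factor of *Bdnf* promoters, had -0.68 and *Sirt1*, a deacetylase, -0.41, and without that array they had -0.31 and -0.11. *Carf* passed limma with the replicate block (unadjusted p = 0.0396). Without KO milk replicate 2, in contrast, *Carf*, *Creb1* and *Sirt1* had -1.03, -0.63 and -0.64 (unadjusted p = 0.00401, 0.0234 and 0.0287 from limma). More clusters of the whole array passed in that setting, 1376 of 22206 against 726 with all arrays. In KO milk replicate 2, where *Bdnf* was highest, *Creb1* was not above the WT milk arrays. Whether *Creb1* levels bear on those of *Bdnf* was not tested.

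Genes known to rise in neurons exposed to BDNF gave 1 lower of 17 measured and a median of -0.10. The lower one was the nuclear receptor *Nr4a1*, at 10.33, 9.46 and 9.56 in the WT milk arrays, against 9.26, 8.66 and 9.14 in those with KO milk, again without overlap. Its log2 fold change was -0.76 ± 0.26 (standard error, limma, unadjusted p = 0.0133, adjusted p = 0.9996), or -0.49 without WT milk replicate 1 (unadjusted p = 0.0613 from limma) and -0.58 without KO milk replicate 2 (unadjusted p = 0.0574 from limma). It did not pass the unmoderated test either. *Arc*, which shapes synapses after activity, had -0.44, *Dusp4*, a MAP kinase phosphatase, -0.41 and *Homer1*, a postsynaptic scaffold, -0.34, and none of these passed. With single arrays left out they ranged widely, *Arc* from -0.66 to -0.16 (without KO milk replicates 3 and 1), *Dusp4* from -0.69 to -0.23 and *Homer1* from -0.49 to -0.20 (both without WT milk replicates 2 and 1). The lower end of each passed limma, with an unadjusted p of 0.0234, 0.00675 and 0.0491. *Arc* also passed with array weights (-0.64), a setting in which 1165 of all 22206 clusters passed, against 726 without weights. Activity induces these genes by other routes too.

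The GDNF family, another group of neuronal growth factors, was taken for comparison. Of 8 measured genes 1 was lower, and the median was 0.04. The lower one was the receptor kinase *Ret*, at 6.96, 7.23 and 6.71 in the WT milk arrays, against 6.27, 6.58 and 6.49 in those with KO milk. Its log2 fold change was -0.52 ± 0.19 (standard error, limma, unadjusted p = 0.0209, adjusted p = 0.9996), and it did not pass without WT milk replicate 2 (-0.39) or without KO milk replicate 1 (-0.43), nor with the choroid plexus level as a covariate (unadjusted p = 0.0955 from limma).

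Cell types that express the members were followed by their markers. Astrocyte genes, from cells that carry short TrkB, had a median of -0.09 over 11 genes with 1 lower, *S100b*, at -0.58 (unadjusted p = 0.0456 from limma). It did not pass the unmoderated test, limma after quantile normalization or with either covariate, or limma without WT milk replicate 2 or 3 or KO milk replicate 3 (-0.43, -0.50 and -0.36). Dentate granule neurons had a median of 0.16 over 9 genes with 1 higher, *Prox1*, at 0.54 (unadjusted p = 0.0149 from limma), and it did not pass if replicate 2 of either group was left out (0.46 for WT milk and 0.42 for KO milk). The medians of the astrocyte and dentate lists turned to 0.03 without KO milk replicate 1 and to -0.02 without WT milk replicate 2. Pyramidal neurons of CA2 and CA3, interneurons and Cajal-Retzius cells had medians of -0.12, -0.04 and 0.10 with 0 genes past the threshold in each. Myelinating oligodendrocytes had 9 of 11 genes lower and a median of -0.84, beside the values of -0.0005 for *Ntrk2* and 0.08 for *Ntrk3*. Genes listed for oligodendrocyte precursors had a median of -0.31 with 1 of 8 lower, *Gpr17*, at -0.50, while *Cspg4* had -0.02. Their values ran from -0.74 for *Lhfpl3*, which rested on KO milk replicate 3, to 0.36 for *Matn4*, with 7 of 8 below 0. Thalamus genes, from the tissue next to the hippocampus, had a median of -0.24 with 4 of 10 lower. Mural and meningeal cells, endothelial cells and microglia had medians of -0.10, -0.17 and -0.02 with 0 past the threshold.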

How the data were processed

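Each deposited value is the log2 intensity of a transcript cluster on a Clariom S mouse array, to which the authors had applied RMA in Transcriptome Analysis Console. RMA corrects the background, makes the arrays' distributions alike and combines the probes of a cluster. No source used here names the array's genome build, and cluster coordinates are not printed. Of 22206 clusters, 19572 carried 1 gene symbol and 55 symbols lay on several clusters. Samples were grouped by the genotype of the nursing dam. All clusters were fitted with limma 3.58.1 in R 4.3.3 (KO milk minus WT milk, no filter), with Benjamini-Hochberg adjustment and a threshold of 0.05. The fit was tested on simulated data. The number of arrays limits the precision. A planned difference of *Bdnf* and *Ntf3* was not run.

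The members and lists were chosen with earlier results of these data known. Genes named are the members, up to 4 per role list and 2 per marker list with the smallest p, and the 3 genes nearest to each member in profile among those above the receptor level. Results were recomputed with each array left out and with other scalings (a further quantile normalization, cyclic loess, a common median for all arrays). They were recomputed for clusters with a mean intensity of at least 5 or 6, with weighted arrays and a robust prior and variance trend, each on its own. Further settings were the unmoderated t-test, replicate number as a block, and the level of Y-linked or choroid plexus genes as a covariate. Promoter sequences are from RefSeq.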

Additional observations from a re-analysis of the deposited data

How the results depend on the processing

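No member passed the adjusted threshold of limma under any of the alternatives, and the counts of members at an unadjusted p under 0.05 stayed at 0 lower and 0 higher in all of them. The sign of values near 0 turned. *Bdnf* was at 0.002 with the Y-linked genes and 0.216 with the choroid plexus genes as a covariate, and ran from -0.62 to 0.25 with arrays left out. *Ntrk2* was at 0.043 after quantile normalization again, 0.025 after cyclic loess, 0.014 with a common median and 0.002 with array weights, and ran from -0.037 to 0.030 with arrays left out. *Ntrk3* ran from 0.0046 to 0.115 and *Ngfr* from -0.229 to 0.002 with arrays left out. *Ntrk2* minus *Ntrk3* ran from -0.103 to -0.042, *Ntrk2* minus *Ngfr* from -0.039 to 0.259 and *Bdnf* minus *Ntrk2* from -0.642 to 0.269. The medians of the role lists turned sign for processing and release (-0.0018 to 0.104) and for the GDNF family (-0.048 to 0.127), and those of the marker lists for dentate granule neurons (-0.023 to 0.320), interneurons (-0.140 to 0.057), astrocytes (-0.176 to 0.034), mural and meningeal cells (-0.280 to 0.049), microglia (-0.263 to 0.066) and septal cholinergic neurons (-0.048 to 0.055), with arrays left out. Those of the co-receptor, Trk signalling and induced gene lists kept their sign but ranged from 0.018 to 0.162, from -0.086 to -0.029 and from -0.204 to -0.084. The cause was not tested.

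Same-numbered arrays showed no shared deviation (correlations of 0.025, -0.127 and 0.016 over clusters). With 3 arrays per group, each centred on its group mean, such correlations cannot decide whether the numbers pair the samples. With 1 array of each group per number, the replicate block cannot move a group difference (-0.24 for *Bdnf*), only its error. With it the unadjusted p from limma was 0.521, 0.998, 0.688 and 0.514 for *Bdnf*, *Ntrk2*, *Ntrk3* and *Ngfr*, and 722 clusters passed at an unadjusted p under 0.05, against 726 without it. *Ngfr* could not be fitted at a mean intensity of at least 6, and no member had another cluster to try. Its signal near the level of silent genes limits what can be seen. Array weights gave 1165 clusters, the Y-linked covariate 479, the choroid plexus covariate 422, a mean intensity of at least 5 or 6 gave 466 and 342, and leaving out KO milk replicate 2 gave 1376.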
